A study of Mus musculus with 6 samples.

Results

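The genes described here are 9 genes of urea transport, organic osmolytes and the response to high salt, taken from mRNA profiles of whole mouse kidneys at postnatal day 3. They are the urea transporter genes Slc14a2 and Slc14a1, the osmolyte genes Akr1b3, Slc6a12, Slc5a3 and Slc6a6, the transcription factor gene Nfat5 and the chaperone genes Cryab and Hspa4l. They were taken from the 19658 genes of the table that held a value, by matching the gene symbol, and each symbol was found once. They were chosen by their FPKM values and fold changes in the comparison of the genotypes described here, so every difference given for these 9 genes is a description and not a test.

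RNA came from 3 samples with the genotype R26NICD2/+Kspcre, shortened to NICD2 below, and from 3 wild type samples, all of the same age. R26NICD2 places the intracellular domain of Notch2, the active part of the receptor, at the Rosa26 locus, on 1 of the 2 copies of that locus per the genotype. In Kspcre mice Cre recombinase is under the Cdh16 (Ksp-cadherin) promoter, a promoter of tubule epithelium. The labels do not say in which cells of these kidneys the allele was active. The series title names cyst growth under active Notch2 as its question. The labels do not say whether the wild type mice carried Cre, nor that the samples of a genotype came from separate animals, so the spread between them may be partly technical.

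The medulla of the kidney holds a gradient of salt and urea that draws water out of the urine. Urea transporters let urea pass between collecting duct, thin limb and vasa recta and so keep it in the inner medulla. Cells living in that gradient fill up with organic osmolytes, among them sorbitol, betaine, myo-inositol, taurine and glycerophosphocholine, which balance the salt outside without harming proteins. The transcription factor NFAT5, also known as TonEBP, switches on the genes that make or import these osmolytes, and it acts through a DNA motif called the tonicity-responsive element (TonE). Chaperones of the small heat shock and Hsp110 families are also high in the medulla. In rodents the gradient is still weak at birth and builds up over the first weeks of life.

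Levels are in FPKM as the authors deposited them, that is, fragment numbers divided by transcript length and by the size of the library. Fold changes are NICD2 minus wild type on the log2(FPKM + 1) scale, each with its SE from limma fitted to all 13765 genes that reached 1 FPKM in at least 3 libraries. This scale understates the change of genes near 1 FPKM. A gene was called at a Benjamini-Hochberg adjusted p under 0.05 over all genes tested. The 6 libraries held an estimated 16100000 to 17100000 fragments. The transgene row, named for human Notch2, stood at 75.4, 79.6 and 60.2 FPKM in the NICD2 libraries and at 0, 0.03 and 0.03 FPKM in the wild type libraries. Libraries also stood apart within genotypes. Uty, Kdm5d, Ddx3y and Eif2s3y, all Y-linked, were at 0 FPKM in NICD2 replicate 3 and expressed in the other 5 libraries. The 6 adrenal markers Cyp11a1, Star, Cyp11b1, Th, Dbh and Chga summed to 2 FPKM in NICD2 replicate 1 and to 4.07 FPKM in wild type replicate 3, and to 92.5 to 107 FPKM in the other 4 libraries.

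In NICD2 kidneys, 6 of the 9 genes were called, and all 6 were lower, namely Slc14a2, Slc6a12, Akr1b3, Cryab, Nfat5 and Slc5a3. Of all genes tested, 8.79% were called, with 3.86% lower and 4.93% higher. Slc14a1, Slc6a6 and Hspa4l were not called. The median log2 fold change of the 9 was -0.43, against -0.01 over all genes tested. The groups did not overlap for 7 of the 9, which were all lower in NICD2, where 15.5% of all genes tested were lower without overlap. Nothing is read from these counts, since the genes were chosen with the comparison known. All 9 passed the filter on low values, and Slc6a12 passed through the wild type libraries alone. In whole kidneys, fewer cells of a type and less RNA per cell cannot be told apart.

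**Figure D1:**
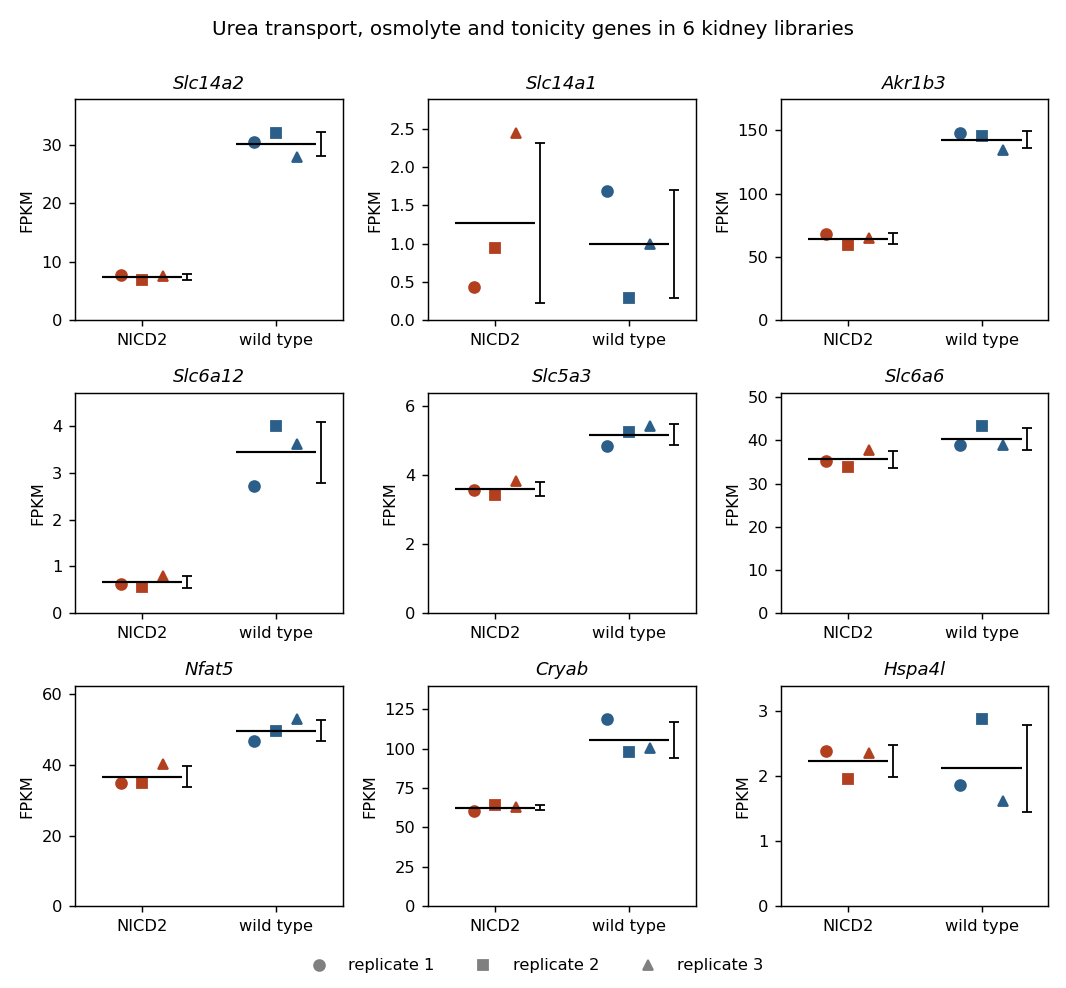
FPKM of each of the 9 genes in the 3 NICD2 and 3 wild type libraries, each axis starting at 0; symbols mark the replicate number, the line is the mean and the bar the SD. The NICD2 points lie below all wild type points for Slc14a2, Akr1b3, Slc6a12, Slc5a3, Slc6a6, Nfat5 and Cryab, and the groups mix for Slc14a1 and Hspa4l.

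Slc14a2 encodes the UT-A urea transporters of the inner medullary collecting duct and the thin descending limb. Its level was 7.77, 6.87 and 7.6 FPKM in the NICD2 libraries and 30.5, 32.0 and 27.9 FPKM in the wild type libraries. Every NICD2 library lay far below every wild type library, and the spread within each genotype was small. The mean of 7.41 ± 0.478 FPKM in NICD2 was 24.6% of the wild type mean of 30.1 ± 2.08 FPKM (SD, n = 3 each), a log2 fold change of -1.89 ± 0.08. On the main scale, 15 of the 13765 genes tested, Slc14a2 included, had a fold change this low or lower. This rank depends on the scale, which compresses the change of genes at low levels, and Slc14a2 was chosen with its fold change known. Slc6a12 fell to a lower share of its wild type level, 19.3%, and ranked behind Slc14a2 on the main scale. With a pseudocount of 0.1 the log2 fold change was -2.21 for Slc6a12 and -2.01 for Slc14a2. The gene lies on chromosome 18 (78146144 to 78596950 on GRCm38, minus strand), and its row covers 8 transcripts, so the table does not separate the collecting duct forms from the thin limb form.

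Slc14a1 encodes UT-B, the urea transporter of the descending vasa recta and of red blood cells, and it is the direct neighbour of Slc14a2, 4024 bases away on the same strand of chromosome 18 (78100091 to 78142119). Its level was 0.43, 0.94 and 2.44 FPKM in the NICD2 libraries and 1.69, 0.29 and 1.00 FPKM in the wild type libraries. High and low libraries were found in both genotypes, and the groups overlapped widely. The means were 1.27 ± 1.04 FPKM in NICD2 and 0.993 ± 0.700 FPKM in wild type (SD, n = 3 each), with a log2 fold change of 0.15 ± 0.35 whose sign turned to -0.20 without NICD2 replicate 3 and to -0.13 without wild type replicate 2. The lowest library, wild type replicate 2, held about 18 fragments of the gene as estimated from its longest transcript, and the highest, NICD2 replicate 3, about 156.

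Markers of red cells and endothelium were set beside these values, and these need not be the only cell types with UT-B. Of 7 red cell genes, 5 were tested and none was called, and their summed level was 2280 to 3706 FPKM in NICD2 and 2574 to 6098 FPKM in wild type, highest in wild type replicate 1. Rhag was at 0 FPKM in 1 wild type library, and the other 6 were above 0 in every library. Of 8 endothelial genes, Emcn, Tek and Egfl7 fell and none rose, and the list summed to 357 to 373 FPKM in NICD2 and 412 to 467 FPKM in wild type. Their part in the level of Slc14a1 was not tested.

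Akr1b3 encodes aldose reductase, which makes sorbitol from glucose. Of the 9 genes it had the highest level per length in both genotypes. It stood at 68.3, 59.7 and 64.6 FPKM in the NICD2 libraries, against 148, 145 and 135 FPKM in the wild type libraries. The groups were separated by a wide gap. The mean of 64.2 ± 4.32 FPKM in NICD2 was 45.0% of the wild type mean of 142 ± 6.84 FPKM (SD, n = 3 each), a log2 fold change of -1.14 ± 0.07. The gene (chromosome 6, 34303930 to 34317489) has 1 transcript in the table. It has close relatives in Akr1b7, Akr1b8 and Akr1b10, and the sources used here do not say how reads shared among them were divided.

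Slc6a12 encodes BGT1, the betaine transporter that the renal medulla uses to take up betaine. Its level was 0.63, 0.56 and 0.80 FPKM in the NICD2 libraries and 2.72, 3.99 and 3.6 FPKM in the wild type libraries. All NICD2 libraries were under 1 FPKM and all wild type libraries above 2 FPKM. The NICD2 mean of 0.663 ± 0.123 FPKM was 19.3% of the wild type mean of 3.44 ± 0.651 FPKM (SD, n = 3 each), the lowest share among the 9 genes. The log2 fold change was -1.41 ± 0.13 with the pseudocount of 1 and -2.21 with a pseudocount of 0.1, a move of over 1.5 times. At the estimated depth the gene had about 23 to 33 fragments in a NICD2 library and about 107 to 165 in a wild type library, so counting error is largest here and in Slc14a1.

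Next to Slc6a12, 4877 bases upstream on chromosome 6, lies Slc6a13, which encodes GAT2, a related transporter of GABA, betaine and taurine found in kidney cortex. Slc6a13 stood at 16.4, 14.7 and 13.7 FPKM in NICD2 and at 16.9, 13.7 and 14.1 FPKM in wild type (limma log2 fold change 0.00 ± 0.10, adjusted p = 0.987). Its groups overlapped, and the ratio of Slc6a12 to Slc6a13 within a library was 0.0382 to 0.0586 in NICD2 and 0.161 to 0.292 in wild type.

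Windows from 250 bases before to 50 bases after the start are printed below. Those of Slc6a12 and Slc6a13 are printed because the genes are neighbours and both windows hold a match to the TonE consensus. That of Slc5a3 is printed because it is another osmolyte importer that was called lower, and its window holds no match. All are RefSeq windows on GRCm38.p6, plus strand, at chr6:121342324-121342623, chr6:121303389-121303688 and chr16:92058072-92058371. Capitals mark the TonE match.
Slc6a12: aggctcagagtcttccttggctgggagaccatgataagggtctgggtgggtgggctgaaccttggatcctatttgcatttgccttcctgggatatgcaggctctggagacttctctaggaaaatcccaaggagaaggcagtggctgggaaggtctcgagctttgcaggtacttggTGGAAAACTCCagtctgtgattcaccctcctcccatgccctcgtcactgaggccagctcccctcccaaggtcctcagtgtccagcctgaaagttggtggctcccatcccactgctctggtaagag
Slc6a13: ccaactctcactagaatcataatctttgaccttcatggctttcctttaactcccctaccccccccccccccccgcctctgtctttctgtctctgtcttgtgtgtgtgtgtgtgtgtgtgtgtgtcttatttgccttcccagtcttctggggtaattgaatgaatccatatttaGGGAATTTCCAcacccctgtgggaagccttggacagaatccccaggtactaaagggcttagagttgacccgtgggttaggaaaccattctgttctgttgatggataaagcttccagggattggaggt
Slc5a3: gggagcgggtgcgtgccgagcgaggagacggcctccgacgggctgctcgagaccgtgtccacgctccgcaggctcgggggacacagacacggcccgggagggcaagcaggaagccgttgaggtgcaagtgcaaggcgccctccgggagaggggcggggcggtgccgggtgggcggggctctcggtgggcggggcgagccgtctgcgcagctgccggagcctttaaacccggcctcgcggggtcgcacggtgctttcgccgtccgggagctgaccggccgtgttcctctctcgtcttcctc

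The TonE consensus was searched on both strands. In Slc6a12 the match begins 75 bases before the first of 5 annotated starts and lies on the strand of the gene, while the windows of the other 4 starts hold none. In Slc6a13 the match begins 77 bases before 1 of 3 starts and reads on the opposite strand. The consensus was found in 4.96% of the 32851 windows of this length in the RefSeq table, and its first 6 bases, TGGAAA, in 21.4%. Of the 9 genes, 4 had a window, Slc6a12, Slc5a3, Nfat5 and Hspa4l, and Slc6a12 was the 1 with a match. Among the other genes of the same pathways, 6 of 61 with a window held a match (9.84%, against 5.74% of all genes with a window), namely Slc6a13, Gadl1, Hspb1, Hsph1, Pnpla6 and Gdpd1, of which Gadl1 was not tested and the other 5 were not called. A match is a description of the letters and not a binding site. Bases outside the windows were not searched, so a window without a match does not show that the gene has none.

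Slc5a3 encodes SMIT1, which imports myo-inositol with sodium. It stood at 3.57, 3.42 and 3.82 FPKM in the NICD2 libraries, against 4.84, 5.25 and 5.41 FPKM in the wild type libraries. The groups did not overlap, and the gap between them was wider than the range of either. The mean was 3.603 ± 0.202 FPKM in NICD2 and 5.17 ± 0.294 FPKM in wild type (SD, n = 3 each), 69.7% of the wild type level, with a log2 fold change of -0.42 ± 0.08. The call was lost when a library was left out in 4 of 6 cases (without NICD2 replicate 1 or 2, or wild type replicate 2 or 3).

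Slc5a3 (chromosome 16, 92058322 to 92087473) overlaps Mrps6, a gene of the mitochondrial ribosome on the same strand whose start is 14 bases downstream. The overlap runs over 29138 bases, and reads from exons that they share cannot be told apart. Mrps6, named here for its position, stood at 42.2, 39.6 and 40.9 FPKM in NICD2 and at 57.6, 46.5 and 49.4 FPKM in wild type (limma log2 fold change -0.31 ± 0.08, adjusted p = 0.0543). The groups did not overlap for Mrps6 either, and it was not called. Its NICD2 libraries lay at 77.4% to 82.5% of the wild type mean, where those of Slc5a3 lay at 66.2% to 73.9%.

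Slc6a6 encodes TauT, the taurine transporter. Its level was 35.2, 33.8 and 37.8 FPKM in the NICD2 libraries and 38.9, 43.3 and 38.9 FPKM in the wild type libraries. The highest NICD2 library came close to the lowest wild type library, without overlap. The means were 35.6 ± 2.04 FPKM in NICD2 and 40.4 ± 2.51 FPKM in wild type (SD, n = 3 each), and the log2 fold change was -0.18 ± 0.07, which was not called.

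Nfat5 encodes the transcription factor that drives the osmolyte genes in high salt. It stood at 35.0, 34.9 and 40.3 FPKM in the NICD2 libraries, against 46.8, 49.6 and 53.0 FPKM in the wild type libraries. The groups did not overlap, and the NICD2 replicate without Y-linked transcripts was the highest of its genotype. The mean was 36.7 ± 3.06 FPKM in NICD2 and 49.8 ± 3.10 FPKM in wild type (SD, n = 3 each), 73.8% of the wild type level, with a log2 fold change of -0.43 ± 0.08. NFAT5 is also controlled after transcription, by its protein level, its phosphorylation and its entry into the nucleus, which these data do not measure.

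Cryab encodes alpha-B-crystallin, a small heat shock protein that is abundant in medulla, lens and muscle. Its level was 60.7, 64.1 and 63.0 FPKM in the NICD2 libraries and 119, 97.6 and 101 FPKM in the wild type libraries. The groups were far apart, and the NICD2 libraries lay closer together than the wild type ones. The mean of 62.6 ± 1.74 FPKM in NICD2 was 59.3% of the wild type mean of 106 ± 11.4 FPKM (SD, n = 3 each), a log2 fold change of -0.74 ± 0.08. Of 8 striated muscle markers, 3 were tested and none was called, and their summed level was 13.2 to 16.2 FPKM in NICD2 and 12.1 to 20.2 FPKM in wild type. Des, the most abundant of them, was at 7.62 to 10.1 FPKM in NICD2 and 7.11 to 10.4 FPKM in wild type. Tnnt1 was at 3.06 to 3.18 FPKM in NICD2 and 3.35 to 4.22 FPKM in wild type. Ckm was at 0 in 1 NICD2 and 2 wild type libraries, and the other muscle markers were above 0 in every library. Their part in the level of Cryab was not tested.

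Hspb2, another small heat shock gene, lies head to head with Cryab on chromosome 9, and their rows overlap by 1030 bases on opposite strands. It stood at 3.36, 2.39 and 3.07 FPKM in NICD2 and at 2.57, 3.71 and 2.45 FPKM in wild type (limma log2 fold change 0.02 ± 0.15, adjusted p = 0.959). Its groups overlapped. The sources used here do not say whether the counting used strand, so reads of the 2 genes in the overlap cannot be told apart.

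Hspa4l encodes an Hsp110 chaperone first described in kidney medulla as osmotic stress protein 94. Its level was 2.39, 1.95 and 2.35 FPKM in the NICD2 libraries and 1.86, 2.87 and 1.62 FPKM in the wild type libraries. The groups overlapped fully, with the highest and the lowest value both in wild type. The means were 2.23 ± 0.243 FPKM in NICD2 and 2.12 ± 0.663 FPKM in wild type (SD, n = 3 each), with a log2 fold change of 0.07 ± 0.15 whose sign turned to -0.05 without wild type replicate 3. The table places this row on a separate scaffold and not on chromosome 3, where the RefSeq window of the gene lies, and the sources used here do not say how reads matching both were assigned.

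**Figure D2:**
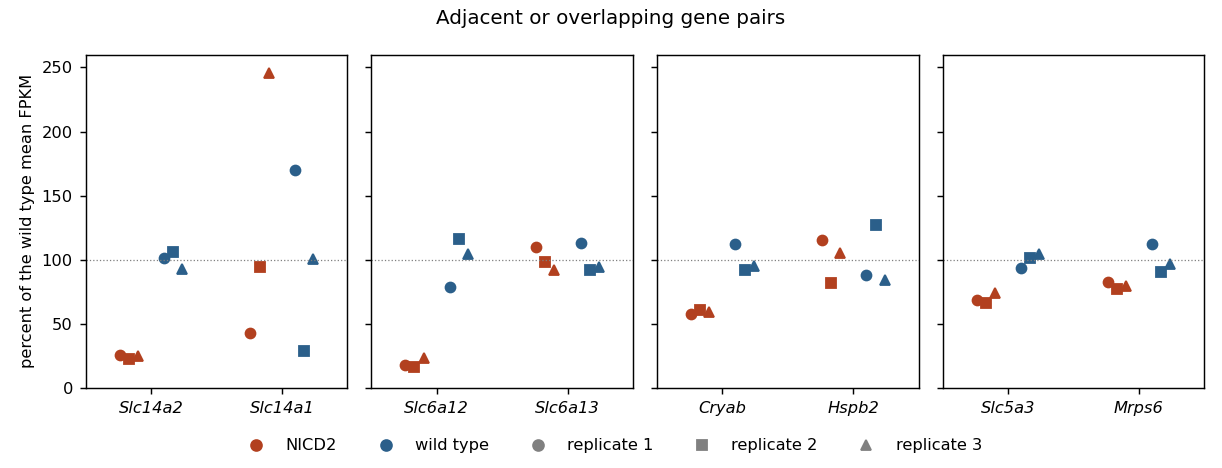
Level of 4 of the genes and of the gene next to or overlapping each, as a percentage of that gene's wild type mean FPKM, by library; the dotted line is 100%. Slc14a2, Slc6a12 and Cryab lie below 100% in every NICD2 library while Slc14a1, Slc6a13 and Hspb2 scatter around it, and Slc5a3 and Mrps6 both lie below it.

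The order of the levels per length was the same at the top in both genotypes. In NICD2 it ran from Akr1b3 through Cryab, Nfat5, Slc6a6, Slc14a2, Slc5a3, Hspa4l and Slc14a1 to Slc6a12. In wild type it ran from Akr1b3 through Cryab, Nfat5, Slc6a6, Slc14a2, Slc5a3, Slc6a12 and Hspa4l to Slc14a1. Between neighbours in that order, the ranges of Akr1b3 and Cryab overlapped in NICD2, at 59.7 to 68.3 FPKM and 60.7 to 64.1 FPKM, and did not overlap in wild type. Nfat5 and Slc6a6 overlapped in NICD2 too, at 34.9 to 40.3 FPKM and 33.8 to 37.8 FPKM. Slc14a1 overlapped with both of its neighbours in NICD2, and in wild type Slc6a12 and Hspa4l overlapped at their margins, as did Hspa4l and Slc14a1. Akr1b3 stood at percentile 91.8 of the tested genes in NICD2 and at percentile 97.04 in wild type, while Slc14a2 stood at percentile 36.1 in NICD2 and at percentile 80.2 in wild type.

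**Figure D3:**
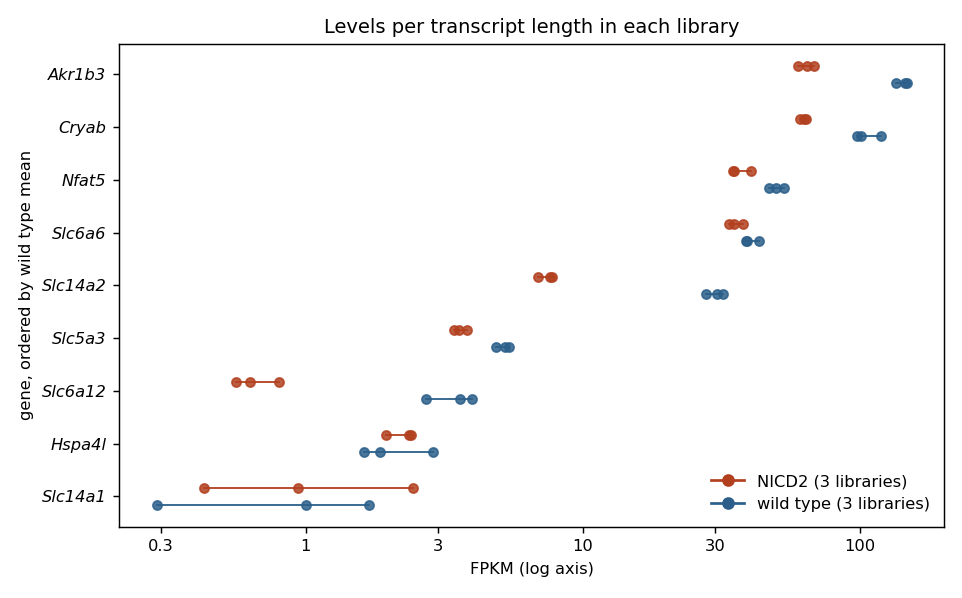
FPKM of the 9 genes in each library on a log axis, ordered by the wild type mean; points are libraries and lines join the lowest and highest of a genotype. Slc14a2 and Slc6a12 show the widest gaps between NICD2 and wild type.

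The other genes of these pathways were counted from lists of urea, sorbitol, myo-inositol, betaine, glycerophosphocholine, taurine, chaperone, NFAT5 and other tonicity genes, with the 9 genes left out. Of these 76 genes 67 were tested, and 4 rose and 2 fell in NICD2, which is 8.96% called against the 8.79% of all genes tested. Their median log2 fold change was -0.06. The groups did not overlap for 24 of the 67 (35.8%), where the share over all genes tested was 30.5%.

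In the urea list, 1 of the 4 other genes tested rose and 1 fell. Arg2, the mitochondrial arginase that releases urea from arginine, rose to 22.3, 14.4 and 14.6 FPKM in NICD2, against 7.66, 7.06 and 8.10 FPKM in wild type (limma log2 fold change 1.05 ± 0.15, adjusted p = 0.00399). Every NICD2 library was above every wild type library, and NICD2 replicate 1 was the highest. Ass1, argininosuccinate synthase, fell to 188 ± 23.2 FPKM in NICD2, against 249 ± 20.01 FPKM in wild type (SD, n = 3 each, limma adjusted p = 0.0431). Asl, the next enzyme, was at 27.9 ± 4.72 FPKM in NICD2 and 37.4 ± 0.585 FPKM in wild type (SD, n = 3 each, limma adjusted p = 0.0519) and was not called, though it was with a filter at 5 FPKM, with upper-quartile scaling and without NICD2 replicate 3. The liver enzymes Cps1 and Otc were at 0.02 FPKM or less in every library.

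No other gene was called in the sorbitol, myo-inositol, betaine or taurine lists, with 6, 7, 7 and 5 tested. Sord, sorbitol dehydrogenase, which converts sorbitol to fructose, stood at 52.5, 57.7 and 65.1 FPKM in NICD2 and at 65.3, 69.6 and 69.9 FPKM in wild type (limma log2 fold change -0.23 ± 0.08, adjusted p = 0.131). The ratio of Akr1b3 to Sord within a library was therefore 0.992 to 1.30 in NICD2 and 1.93 to 2.26 in wild type, without overlap. Miox, which breaks down myo-inositol in the proximal tubule, was at 165 ± 23.3 FPKM in NICD2 and 177 ± 11.9 FPKM in wild type (SD, n = 3 each, limma adjusted p = 0.564). In the glycerophosphocholine list Chka, a choline kinase, fell to 32.1 ± 1.89 FPKM in NICD2, against 40.9 ± 2.97 FPKM in wild type (SD, n = 3 each, limma adjusted p = 0.0268), and the other 6 tested genes were not called.

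Among the 11 other chaperone genes 2 rose and none fell. Hspa1b, an inducible Hsp70 that high salt is known to induce, was at 21.9, 16.6 and 17.9 FPKM in NICD2 and at 11.3, 12.1 and 10.02 FPKM in wild type (limma log2 fold change 0.70 ± 0.11, adjusted p = 0.00584). Its near-identical copy Hspa1a was not called, at 10.04, 6.81 and 7.58 FPKM in NICD2 and at 7.59, 6.62 and 5.80 FPKM in wild type (limma adjusted p = 0.315), and the division of reads between these copies is uncertain. Hspb8, a small heat shock protein, rose to 13.0 ± 2.46 FPKM in NICD2, against 8.30 ± 0.623 FPKM in wild type (SD, n = 3 each, limma adjusted p = 0.0256). Hspa4, the relative of Hspa4l, was at 45.3 ± 0.808 FPKM in NICD2 and 39.5 ± 2.17 FPKM in wild type (SD, n = 3 each, limma adjusted p = 0.0940).

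None of 11 regulators of NFAT5 was called, though Akap13 was with a filter at 5 FPKM and without wild type replicate 1. Of 9 other tonicity and cell volume genes, Slc38a2 rose, which encodes the amino acid transporter SNAT2 that salt stress and amino acid shortage are known to induce. It stood at 87.0, 78.6 and 79.3 FPKM in NICD2, against 51.7, 55.7 and 55.2 FPKM in wild type (limma log2 fold change 0.58 ± 0.07, adjusted p = 0.00111). Sgk1, a kinase that salt and aldosterone induce, was at 44.4 ± 2.12 FPKM in NICD2 and 48.4 ± 3.23 FPKM in wild type (SD, n = 3 each, limma adjusted p = 0.323). Ass1, Chka and Hspb8 each lost their call in 4 of 6 cases when a library was left out, and Arg2, Hspa1b and Slc38a2 in none.

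**Figure D4:**
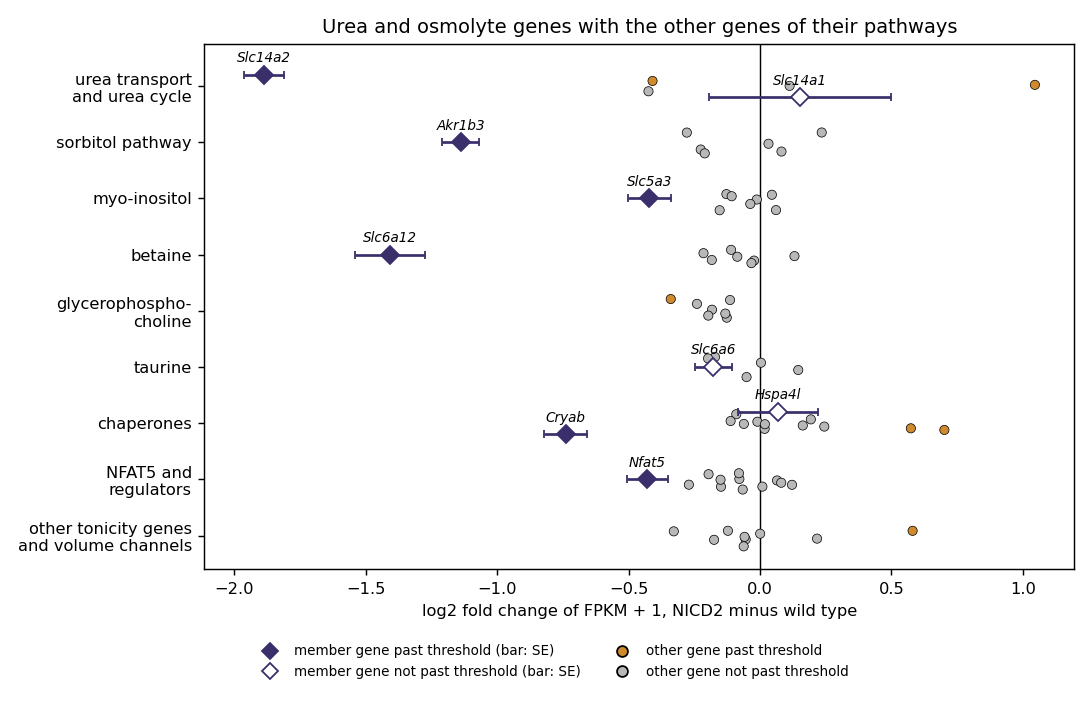
Log2 fold change of FPKM + 1, NICD2 minus wild type, for the 9 genes (diamonds, with SE) and the 67 other tested genes of their pathways (circles), by list; filled diamonds and orange circles passed the threshold. The called diamonds lie at -0.42 to -1.89, and the orange circles on both sides of 0.

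Markers of collecting duct and thin limb cells were measured in the same libraries. Of 11 principal cell genes 5 fell (Aqp2, Aqp3, Aqp4, Hsd11b2 and Fxyd4) and 2 rose (Scnn1g and Elf5), and the list summed to 248 to 296 FPKM in NICD2 and 424 to 460 FPKM in wild type. Of 7 intercalated cell genes all fell, with sums of 41.1 to 45.7 FPKM in NICD2 and 155 to 158 FPKM in wild type. Of 6 thin limb genes that are none of the 9, Aqp1 and Bst1 fell and Tspan8 rose. Corin and Sptssb were not called, and Fst was not tested. Corin was still higher in every NICD2 library, at 19.2 to 29.5 FPKM against 15.15 to 18.9 FPKM in wild type. The list summed to 169 to 189 FPKM in NICD2 and 139 to 152 FPKM in wild type. The higher sum rested on Tspan8. Without it the other 5 summed to 80.5 to 108 FPKM in NICD2 and 103 to 116 FPKM in wild type, with overlap. Most of that remainder was Aqp1, at 56.6 to 74.6 FPKM in NICD2 and 80.0 to 90.9 FPKM in wild type. Whole kidney values do not show whether Aqp1 came from the thin limb or from other tubule cells. Its lower level can therefore not be assigned to the thin limb, and the sum of the proximal markers, given below, was lower too. The part of these collecting duct and thin limb markers in the lower levels of Slc14a2, Akr1b3, Slc6a12 and Cryab was not tested. None of the principal, intercalated or thin limb markers was at 0 in any library.

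Ratios to Aqp2, the water channel of principal cells, were taken within each library. The ratio of Slc14a2 to Aqp2 was 0.151 to 0.188 in NICD2 and 0.214 to 0.235 in wild type, and that of Akr1b3 to Aqp2 was 1.32 to 1.60 in NICD2 and 1.03 to 1.07 in wild type. That of Slc6a12 to Aqp2 was 0.0122 to 0.0198 in NICD2 and 0.0196 to 0.0293 in wild type, and these ranges overlapped. These ratios depend on the choice of Aqp2, which had the lowest share of its wild type level among the principal cell genes. Aqp2 stood at 31.9% and Aqp4 at 33.1%, where Akr1b3 stood at 45.0%. The other principal cell genes listed stood at 46.8% (Fxyd4) to 176% (Scnn1g). Of 7 thick limb, 7 proximal and 6 podocyte markers, 2, 2 and 5 fell and 2, 0 and 0 rose. The thick limb list summed to 558 to 692 FPKM in NICD2 and 443 to 487 FPKM in wild type. The proximal list, in which Slc34a1 and Kap fell, summed to 985.5 to 1159 FPKM in NICD2 and 1501 to 1684 FPKM in wild type. The podocyte list summed to 252 to 268 FPKM in NICD2 and 342.5 to 381 FPKM in wild type. Lower sums were thus not particular to the collecting duct lists. Of 7 urothelial markers 3 fell and 1 rose, and of 7 stromal markers none was called.

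For each gene the profiles most like its own were found by the root-mean-square distance between log2(FPKM + 1) values over the 6 libraries, each profile centred on its mean. Closest to Slc14a2 was Aldh1a3, a retinoic acid synthesis enzyme, at a distance of 0.04, with 5.23, 4.33 and 5.27 FPKM in NICD2 and 20.7, 22.02 and 19.96 FPKM in wild type. Hepacam2, a gene of intercalated cells, and Insrr, an alkali-sensing receptor, followed at 0.16 each. Aldh1a3, Hepacam2 and Insrr stood at 23.7%, 10.9% and 18.1% of the wild type level, against 24.6% for Slc14a2. The scale compresses the change of Hepacam2 and Insrr more, since their levels are lower. Closest to Slc6a12 were the carbonic anhydrase gene Car12 at 0.07 and Aqp4 and P2ry14 at 0.09 each. These stood at 35.9%, 33.1% and 26.8% of the wild type level, against 19.3% for Slc6a12, whose change the scale compresses more. Closest to Akr1b3 were Pvalb at 0.06, the ammonia transporter gene Rhcg at 0.09 and Gsdmc2 at 0.10. Pvalb and Gsdmc2 lie near 1 FPKM in wild type, where this scale compresses a change, and stood at 14.5% and 7.30% of the wild type level, against 45.0% for Akr1b3. Closest to Cryab were Hs3st6, Rprm and Scx at 0.05 to 0.06. Closest to Nfat5 were Shisa2, Proca1 and Mreg at 0.03 each, to Slc5a3 Sh2d4a, Fign and Casp6 at 0.03 to 0.04, and to Slc6a6 Xpc, Mlxipl and B3gat2 at 0.01 to 0.02. The profile closest to Slc14a1, that of Mid1, was farther off at 0.27. For Hspa4l the closest, Hspb2, was at 0.06.

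The differences were also taken within the 4 libraries with adrenal markers and between the 2 libraries almost without them, which are 1 of each genotype and allow no test. The sign is fixed in such a split for the 7 genes whose groups do not overlap, so the sizes alone are given for them. The log2 fold change of Slc14a2 was -1.97 with and -1.72 without adrenal markers, that of Akr1b3 -1.22 and -0.97, and that of Slc6a12 -1.36 and -1.50. That of Cryab was -0.75 and -0.72. Of the genes whose groups overlap, Slc14a1 was at 0.47 and -0.48, and Hspa4l at -0.08 and 0.37. In a fit of the 4 libraries Slc5a3 and Nfat5 lost their calls (log2 fold changes -0.39 and -0.35), where 2 libraries a genotype were left.

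**Figure D5:**
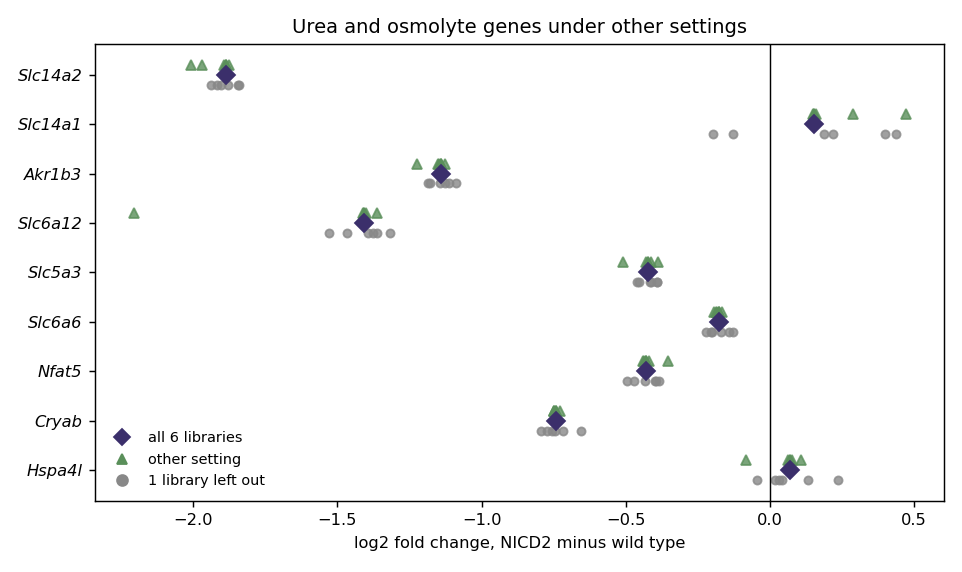
Log2 fold change of each of the 9 genes, NICD2 minus wild type, with all 6 libraries (diamond), under another setting (triangle) and without 1 library (circle). The values of the 7 genes without overlap lie below 0, and Slc14a1 and Hspa4l lie on both sides of 0; the triangle of Slc6a12 near -2.21 is the pseudocount of 0.1.

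The authors' deposited table holds the groups compared with DEGseq and gives a q-value under 0.05 to 8 of the 9 genes and to 48.9% of the 18724 genes with a q-value. In the authors' deposited table Slc14a1 has a log2 fold change of 0.37 (NICD2 over wild type) and q = 0.0120, although its libraries overlap. In the authors' deposited table Slc6a6 has -0.18 and q = 2.24e-20, and Hspa4l, the gene above 0.05, has 0.13 and q = 0.103.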

How the data were processed

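RNA was taken with Trizol from frozen kidneys at postnatal day 3, and libraries were made with an Illumina TruSeq kit, per the labels' protocols. The deposited table gives FPKM per gene and library, computed by the authors, per the file headers. It also holds the authors' mean FPKM per group and a log2 fold change and q-value from DEGseq, per the file headers. Bowtie 0.12.2 and mm8 stand in the submitters' processing notes, while the chromosome accessions in the table are those of GRCm38, and the sources used here do not name the program behind the FPKM. Coordinates are those of the table.

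Of 23669 rows, 4010 held no FPKM and were left out, and 1 symbol on more than 1 row was kept at its highest mean. Another 27 columns, which set single samples against each other, were left aside. Low FPKM values of genes with 1 transcript fall in steps, from which depth was estimated. The depth, and the bases taken off each transcript length, were chosen to bring the largest share of these values within 0.15 of a whole fragment. At that choice the share was 71.3% to 73.9%. By chance 30.0% would do so at a depth not chosen in this way, so the comparison is no test of the estimate. Estimated fragments per gene use the longest transcript and are approximate.

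Values were taken as log2(FPKM + 1). Genes reaching 1 FPKM in 3 or more libraries were tested with limma 3.58.1 in R 4.3.3, with a mean-variance trend and no covariate, two-sided, with Benjamini-Hochberg adjustment. Since the table holds no counts, count models and count normalizations were not run. Python 3.11.15, pandas 2.3.3 and matplotlib 3.10.9 were used for tables and figures.

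The 9 genes and all lists were chosen with earlier results of these data known. Besides these 9, the text names called pathway genes, up to 3 others per list by mean FPKM, up to 3 profiles nearest each gene, markers, pathway genes with a TonE match and relatives of Akr1b3. The neighbours Mrps6 and Hspb2, and Akap13, Hspa1a, Rhag, Cps1, Otc, Ckm, Tnnt1, Corin, Sptssb and Fst, were named after their values were seen. Some genes of the marker lists are not reported here and were left out of their counts and sums. Promoter windows came from RefSeq.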

Additional observations from a re-analysis of the deposited data

How the results depend on the processing

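Across all genes tested, 1210 were called with all 6 libraries, and leaving out 1 library gave 624 to 985 calls, with 624 without wild type replicate 2, 729 without NICD2 replicate 1 and 780 without wild type replicate 3. Of the 9 genes, 6 were called with all libraries and 5 or 6 without 1 library, Slc5a3 being the one lost. Of the other pathway genes, 6 were called with all libraries and 3 to 6 without 1 library, with 3 without NICD2 replicate 1 or wild type replicate 3, while the filter at 5 FPKM gave 8 (Akap13 and Asl gained) and upper-quartile scaling 7 (Asl gained). The 4 libraries with adrenal markers, a choice made after seeing the data, gave 555 calls over all genes and 3 among the other pathway genes, and the log2 fold change of Hspa4l turned to -0.082 there. Leaving out 1 library gave log2 fold changes of -0.20 to 0.44 for Slc14a1 and of -0.045 (without wild type replicate 3) to 0.24 for Hspa4l. With the replicate number as a block (replicate block), 1055 genes were called, the 6 called among the 9 stayed called, and Chka lost its call (adjusted p = 0.0636). Same-numbered libraries had correlations of deviations of -0.03, 0.06 and -0.05 across genes, against -0.25 to 0.25 for the other pairs. These values cannot decide whether the numbers pair the samples, since other differences between libraries may shape them too. The highest, 0.25, joined NICD2 replicate 1 and wild type replicate 3, the libraries almost without adrenal markers. With no filter on low values Ass1 and Hspb8 lost their calls (limma adjusted p = 0.0897 and 0.0662). A filter at 5 FPKM left 5 of the 9 genes in the test, and 4 were called. Of 191 recomputed fold changes of single genes, 163 kept direction and side of the threshold, 24 lost the call and 4 changed sign. Median-ratio and upper-quartile scaling moved the median over all genes to 0.00 and -0.01 and changed no call among the 9. Depth limits Slc14a1 and Slc6a12 most. Alternatives that need counts were not run.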
